A study of Mus musculus with 31 samples.

Results

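Marker genes of cells other than regulatory T cells were followed in ATAC-seq libraries of sorted mouse spleen regulatory T cells (Tregs). The list held 31 genes in 5 lineages: 7 of B cells, 11 of myeloid cells, 3 of natural killer (NK) cells, 2 of CD8 T cells and 8 of erythroid cells. A peak of the deposited count table was taken as a member when the gene list in its name held a marker gene. This gave 102 of 104979 peaks, and because many overlapped they made 40 regions of 73159 in all, each represented by its widest peak. The members were at 20 of the 31 genes, and the other 11 had no peak in the table. ATAC-seq counts transposase cuts, so a peak is a stretch of open chromatin and its count, in the CPM used here (counts per mega, M, after scaling between libraries), is a level of accessibility and not of RNA.

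The donors were BL6 mice whose FoxP3+ cells carry an RFP reporter, and the labels give neither their age nor whether animals were pooled. They had been injected with 5 µg of mouse IL-2 (IL2), 20 µg of the mIL-2/CD25 fusion protein (FP) or 100 µL of PBS. There were 3 libraries each of PBS, IL2 and FP at 0.75 h and at 16 h, 3 of PBS and 3 of FP at 72 h, and 3 of PBS and 4 of FP at 168 h, 31 in all. The labels do not say that each library came from its own animal, so p-values measure the spread between these libraries. The PBS libraries, 12 in all, show what a sorted but unstimulated population holds at the marker genes, and the treated groups were compared with PBS of the same time.

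Each lineage is run by a few transcription factors and known by the proteins they switch on. In B cells, EBF1 and PAX5 maintain the programme and CD79A, CD79B, CD22, BLK and CD20 (Ms4a1) serve the antigen receptor. In myeloid cells, PU.1 (Spi1) and the C/EBP factors drive genes such as Lyz2, Itgam and the calprotectin genes S100a8 and S100a9. In erythroid cells, GATA1 and KLF1 act with signals from the erythropoietin receptor (Epor) to open the globin loci and Alas2, the enzyme that starts haem synthesis. In NK cells the receptors NKp46 (Ncr1), NK1.1 (Klrb1c) and Ly49H (Klra8) mark the surface, and CD8 T cells carry the Cd8a and Cd8b1 chains. Mature Tregs are CD4 T cells in which these genes are mostly silent. IL-2 acts on Tregs through a receptor that contains CD25 and activates STAT5, a factor that binds palindromes of the form TTCNNNGAA.

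The member region that passed the test lay at the 3' end of Hbb-bt, a gene for adult beta-globin, and its sequence is shown for that reason. The peak spanned chr7:103812088-103812803 (GRCm38), 436 bp beyond the gene and 280 bp within it, where GENCODE M21 places the last exon with its 3' UTR. All sequences below are the plus strand of the RefSeq genome, build GRCm38.p6. The first 300 bases of the site, chr7:103812088-103812387, lie downstream of the gene, and the capitals mark a match to TTCNNNGAA and, later, a match to the PU.1 motif GAGGAAGT on the minus strand.
Hbb-bt 3' end: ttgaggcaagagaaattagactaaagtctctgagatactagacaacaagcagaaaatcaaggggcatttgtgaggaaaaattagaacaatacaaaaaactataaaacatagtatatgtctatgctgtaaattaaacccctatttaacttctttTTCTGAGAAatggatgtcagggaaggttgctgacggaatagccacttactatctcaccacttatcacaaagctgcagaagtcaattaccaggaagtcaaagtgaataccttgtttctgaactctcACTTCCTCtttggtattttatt
The STAT5-type match, at 103812241 to 103812249, was 275 bp beyond the annotated end of the gene. The other Hbb-bt region, intergenic and farther downstream, is shown for contrast because it held matches to other motifs and did not pass the test. Its inner part is chr7:103806968-103807105, and the capitals mark AGATAAG, the GATA motif, and a match to the CTCF core on the minus strand.
Hbb-bt intergenic: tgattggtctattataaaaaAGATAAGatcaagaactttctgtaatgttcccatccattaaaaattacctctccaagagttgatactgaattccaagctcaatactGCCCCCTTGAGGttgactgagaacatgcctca
In all, 7 of the 40 regions (17.5%) held TTCNNNGAA, against 13.2% of all peaks of 75 to 1332 bp. The other matches are shown with 10 bases on either side and the match in capitals, so that the values given later can be read against the letters. They lie at chrX:7978037-7978065 and chrX:7964179-7964207 for Gata1, chr6:71376548-71376576 and chr6:71376883-71376911 for Cd8a, chr6:71323239-71323267 for Cd8b1, chr7:35118690-35118718 for Cebpa and chr2:91101776-91101804 for Spi1.
Gata1 upstream first exon: gtgatggtatTTCTCAGAAccacatgagc
Gata1 downstream promoter: ccatctgactTTCTCAGAAaccccgtggt
Cd8a 3' end, first match: ctcaggaaggTTCCAGGAAgcctaactgg
Cd8a 3' end, second match: agcccagaccTTCAGAGAAaattgtgtaa
Cd8b1 promoter: ctcttattacTTCCGGGAAagtgcttcta
Cebpa promoter: tcgcgtggagTTCAGAGAAaaagacgcac
Spi1 intron: gagccagcacTTCATAGAAgctgggtttc

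Library totals ran from 7.39 to 59.6 M counts, and a single peak took 15% to 32.2% of each total. At 168 h, PBS replicate 1 (7.39 M) and FP replicate 2 (12.3 M) stood apart: their mean correlation with all other libraries was 0.815 and 0.843, against 0.867 to 0.912 for the rest. All 20 genes of a T cell and Treg reference list had a peak. In PBS the best promoter-labelled peaks of Foxp3, Il2ra, Cd4 and Cd3e reached 16.5, 15.1, 7.65 and 7.56 CPM per kb of peak width. The Foxp3 one covers the start of Ppp1r3f and part of a Foxp3 intron, 393 bp from a Foxp3 start.

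At the marker genes, PBS libraries showed no peak at 11 of the 31, promoter regions below the median of all promoter peaks at others, and a few open sites outside promoters. The 11 genes without a peak included defining genes of every lineage but CD8 T cells: Cd79b and Ms4a1 of B cells, Csf1r, Itgax, S100a8, S100a9 and Adgre1 of myeloid cells, Ncr1 of NK cells, and Hbb-bs, Hba-a2 and Alas2 of erythroid cells. Of 16 genes of liver, heart, retina, pancreas and skin taken as a closed reference, 9 had no peak. Levels between genes are compared as CPM per kb, as the mean of the 12 PBS libraries, and over regions. The median over regions was 5.36 for B cells, 4.98 for myeloid cells, 4.15 for NK cells, 6.38 for CD8 T cells and 4.80 for erythroid cells. It was 7.76 over 159 regions of the T cell and Treg reference, 6.36 over 10 regions of the closed reference and 5.75 over all regions of the table. Over single peaks, where a region called as many nested peaks counts many times, it was 5.36, 5.73, 15.1, 10.7 and 7.47 in the same order of lineages, against 9.09 for the T cell and Treg reference and 6.99 for all peaks. By that measure NK and CD8 T cell peaks were above the reference and the other lineages below it. Since promoters are more open than other sites, each region was also set against the median of its deposited class over all peaks, which was 11.3 for promoters and 5.83 to 6.34 for the other classes. Above that median were 3 of 16 B cell regions, 0 of 9 myeloid, 2 of 5 NK, 0 of 2 CD8 and 3 of 8 erythroid regions, against 88 of 159 T cell and Treg and 4 of 10 closed reference regions. None of the 16 promoter-labelled marker regions was above it, against 14 of 43 T cell and Treg and 1 of 3 closed reference ones. The Cd3e and Cd4 promoter peaks given above were also below it. The class median is over single peaks, and over all promoter-labelled regions of the table the median was 10.3. Counted by single peaks, 11 of 14 NK, 8 of 17 CD8 and 17 of 31 erythroid peaks were above their class median. Further lists of other markers of these lineages had region medians of 6.01 for B cells (8 of 24 above their class), 6.51 for myeloid cells (17 of 44), 5.06 for NK cells (8 of 24) and 5.64 for erythroid cells (9 of 30). Of 45 regions of the myeloid list, 44 had a widest peak named for a listed gene and enter its median and count. These lists did hold open promoter-labelled peaks, such as those named for Xcr1 at 68.4, Csf2ra at 26.0, Btk at 14.5, Pou2af1 at 13.8 and Irf8 at 13.4 CPM per kb. In bulk libraries fewer open cells and a smaller opening per cell cannot be told apart, so a low level does not count contaminating cells.

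**Figure D1:**
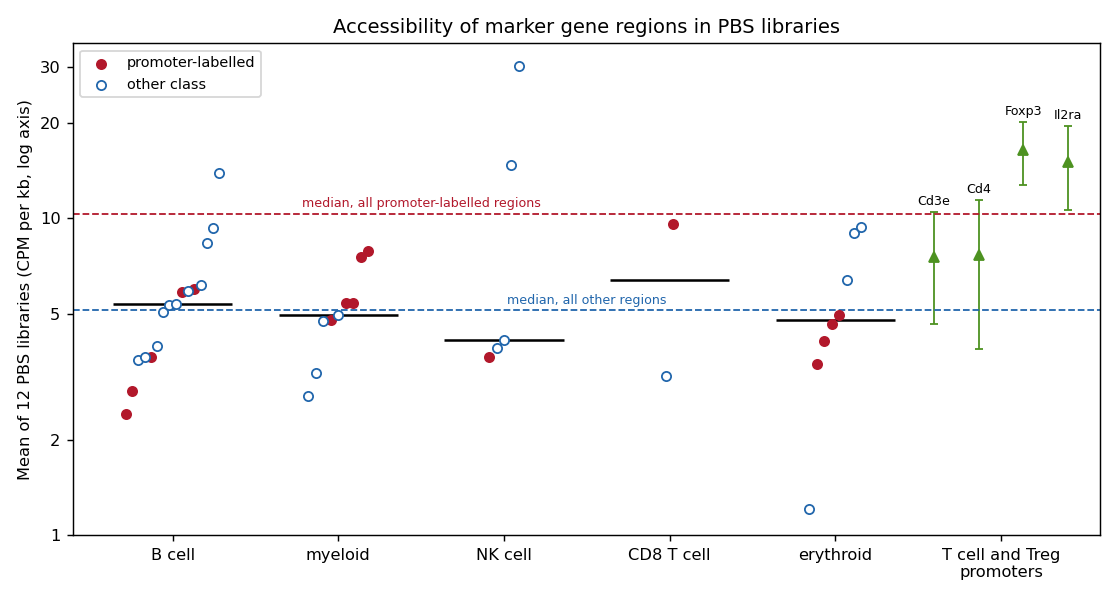
Mean level of each of the 40 marker regions over the 12 PBS libraries (CPM per kb of peak width, log axis) by lineage, with the lineage median as a bar; filled points are promoter-labelled, open points have another class, and triangles are the best promoter-labelled peaks of Cd3e, Cd4, Foxp3 and Il2ra with their SD over libraries. The 16 filled marker points lie below the dashed line of all promoter-labelled regions, and the highest open points are the pair of Klrb1c intergenic sites and an Ebf1 intron site.

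Among B cell genes the most open region in PBS was in an intron of Ebf1 (chr11:44892802-44893650), at 13.9 ± 2.27 CPM per kb (SD, n = 12), the 80.9th percentile of all peaks. It ranged from 8.15 to 14.8 CPM over the 12 PBS libraries with a median of 12.4, so it was present in each. The Ebf1 promoter (chr11:44616908-44617546) was at 3.66 CPM per kb, and the Pax5 promoter (chr4:44704233-44704814) at 5.86 ± 1.64, from 1.36 to 5.30 CPM over libraries with a median of 3.42. The promoter-labelled Cd79a peak (chr7:24901952-24902161) stood at 5.99 ± 4.23 CPM per kb and spread from 0.298 to 2.89 CPM with a median of 1.05. GENCODE M21 places it in an exonic UTR of Cd79a, 4571 bp from the nearest Cd79a start and 751 bp from the start of Arhgef1, so its label does not make it the Cd79a promoter. The Cd22 promoter regions were lowest, at 2.41 and 2.86 CPM per kb. Blk, a kinase of the receptor's signal path, had regions in an intron, an exon and the 3' end, between 5.08 and 9.34. The other Ebf1 regions, in introns and at the 3' end, lay between 3.59 and 8.35, and a pair of Pax5 intron regions at 5.33 and 5.39.

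Among myeloid genes the best promoter peaks were those of Cebpa (chr7:35118950-35119494) at 11.1 ± 3.42 CPM per kb and Spi1 (chr2:91082851-91083383) at 7.56 ± 3.19. They ranged from 2.59 to 9.00 CPM (median 6.09) and from 1.68 to 6.43 CPM (median 3.96) over the PBS libraries. The Cebpa peak is nested in a wider region of 1213 bp that stood at 7.92 CPM per kb. Cebpb and Cd14, the latter the co-receptor for lipopolysaccharide, had promoter regions at 5.43 and 4.77. Of the genes that report mature myeloid cells, Lyz2 had an intergenic region at 4.75, 7383 bp from its start, and Itgam, an integrin of neutrophils and macrophages, an intronic one at 2.76. Neither had a promoter peak. The other Spi1 regions, in an intron, upstream and at the promoter, lay between 3.25 and 5.39.

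NK cell genes gave the most open member of all. The intergenic Klrb1c region at chr6:128763750-128764588, 23898 bp from the nearest Klrb1c start, was at 30.4 ± 6.78 CPM per kb, the 95.9th percentile of all peaks, with 16.6 to 36 CPM over the PBS libraries and a median of 24.3. A neighbouring intergenic region, chr6:128766711-128767249, was at 14.8 CPM per kb. In contrast the Klrb1c promoter (chr6:128788562-128788702) was at 3.65 ± 2.75 CPM per kb, from 0.145 to 1.57 CPM with a median of 0.494, and the Klra8 intron and Klrb1c 3' end regions at 4.15 and 3.90. The gene family has close copies on this chromosome, and 16 of 765, 85 of 465 and 22 of 263 windows of read length (75 bases) in these intergenic regions and the Klra8 region recurred exactly elsewhere on it (2.09%, 18.3% and 8.37%), so reads there could belong to a copy. Near matches and other chromosomes were not counted.

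Both CD8 genes had a single region. The Cd8b1 promoter (chr6:71322300-71323272) was at 9.58 ± 2.38 CPM per kb and ranged from 6.57 to 13.5 CPM with a median of 8.42; it was called as 16 overlapping peaks, of which the highest per kb, 74 bp wide, reached 16.8 ± 9.40. Cd8a had a region in its last exons (chr6:71376325-71377162) at 3.18 and no promoter peak.

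Among erythroid genes Klf1 had an exonic region at 9.39 CPM per kb. The Hbb-bt intergenic region followed at 9.01, called as 16 overlapping peaks, and the site at the Hbb-bt 3' end at 6.39 ± 1.91. The erythropoietin receptor promoter (chr9:21962316-21962870) was at 4.96 ± 1.59, from 1.12 to 4.28 CPM with a median of 2.59, and a neighbouring region of 84 bp at 4.11. Gata1, whose product starts the erythroid programme, had a region at an upstream and at a downstream annotated start. The upstream one (chrX:7977700-7978300) was at 4.64, with a nested peak of 308 bp at 7.47 ± 2.96 that ranged from 1.26 to 4.32 CPM (median 1.96), and the downstream one (chrX:7963940-7964702) at 3.47. Hba-a1 had a region of 88 bp beyond its 3' end at 1.21, the lowest of all members.

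Against PBS of the same time, 1 of the 40 marker regions passed the test, in 1 of the 6 comparisons, and it was erythroid. At 0.75 h after IL2, 1 of 97 tested member peaks, the site at the Hbb-bt 3' end, rose and 0 fell, beside 0.488% of all 100468 tested peaks that rose and 0.00896% that fell (edgeR quasi-likelihood test, adjusted p under 0.05 over all tested peaks). No member peak passed in the other 5 comparisons with PBS. Of all tested peaks 0.00199% rose for FP at 0.75 h, 0% for IL2 at 16 h, 0.114% for FP at 16 h, 0% for FP at 72 h and 0% for FP at 168 h. In each of them 0% of all peaks fell. At an unadjusted p under 0.05 there were 14 member peaks for IL2 at 0.75 h (5.74% of all tested peaks), 1 for FP at 0.75 h (3.14%), 3 for IL2 at 16 h (3.63%), 24 for FP at 16 h (5.31%), 11 for FP at 72 h (5.21%) and 2 for FP at 168 h (4.54%). Many of these were nested peaks of the same region: counted by region they were 2, 1, 0, 7, 3 and 2. In the 5 comparisons without a call, DESeq2 called 1, 0, 1, 0 and 0. The share of all peaks that DESeq2 called is not given here, so these counts cannot be set against it.

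Over regions the median log2 difference of the members tested was -0.12 for IL2 and 0.01 for FP at 0.75 h, 0.02 for IL2 and -0.15 for FP at 16 h, and -0.08 and -0.24 for FP at 72 and 168 h. Over all tested peaks these medians lay between -0.03 and 0.01. Between 35 and 37 of the 40 regions passed the filter on low counts. The groups did not overlap, with treated libraries higher, in 4 of 35 regions for IL2 at 0.75 h (6.2% of all tested peaks), 1 of 35 for FP at 0.75 h (4.62%), 1 of 37 for IL2 at 16 h (4.53%), 5 of 37 for FP at 16 h (6.89%), 0 of 35 for FP at 72 h (6.14%) and 0 of 37 for FP at 168 h (3.6%). They were lower without overlap in 1 (5.14% of all), 0 (3.81%), 0 (4.47%), 4 (5.46%), 5 (5.05%) and 1 (2.64%) regions in the same order. The shares of regions lay on both sides of those of all peaks, and 4 of these 12 counts were 0.

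**Figure D2:**
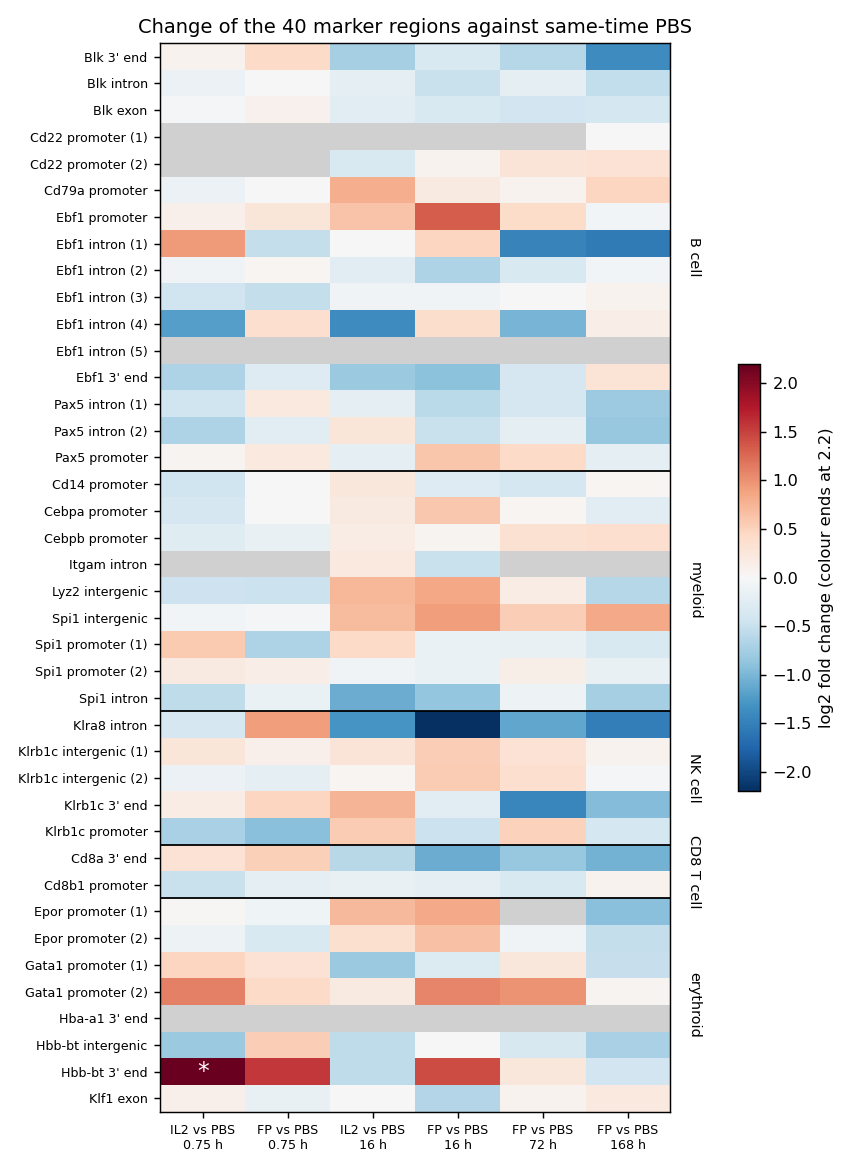
Log2 fold change of each of the 40 marker regions (rows, grouped by lineage) against same-time PBS in the 6 comparisons (columns); red is higher after treatment, blue lower, grey did not pass the filter on low counts, and the asterisk marks an adjusted p under 0.05. The asterisk stands at the Hbb-bt 3' end after IL2 at 0.75 h, with the Hbb-bt cells of FP at 0.75 and 16 h next in size among the reds.

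At the Hbb-bt 3' end the 3 PBS libraries at 0.75 h gave 3.05, 3.63 and 3.93 CPM. The 3 IL2 libraries gave 16.8, 11.6 and 19.5 CPM and the 3 FP libraries 11.1, 7.76 and 12.2 CPM. All 6 treated libraries were above all 3 PBS libraries. The log2 fold change was 2.18 ± 0.29 (SE) for IL2 (adjusted p = 0.00179) and 1.56 ± 0.29 for FP (adjusted p = 0.115, not past the threshold). The raw counts behind these values were 72 to 79 in PBS, 281 to 484 in IL2 and 247 to 374 in FP. The IL2 call held in all 19 alternative analyses, with log2 values from 2.01 to 2.35. FP was called in 2 of its 19 alternatives, by DESeq2 and with the replicate number as a block. FP and IL2 at 0.75 h differed by -0.62 ± 0.27 at this site (FP minus IL2, adjusted p = 1.00), with overlapping libraries. Between these groups 0 of 97 member peaks passed, with 19 at an unadjusted p under 0.05 (3.66% of all), all of them erythroid and 2 of 35 when counted by region, beside 0% of all tested peaks called in either direction; DESeq2 called 0. FP was higher without overlap in 1 of 35 regions (4.47% of all peaks) and lower in 2 (4.86%).

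At 16 h the site gave 4.30, 6.01 and 4.11 CPM in PBS, 1.93, 4.52 and 3.25 CPM in IL2 and 12.6, 16.9 and 9.52 CPM in FP. The FP libraries lay above all others of that time, while IL2 and PBS overlapped. The log2 fold change against PBS was -0.56 ± 0.34 for IL2 (adjusted p = 1.00) and 1.44 ± 0.34 for FP (adjusted p = 0.119), the latter called by DESeq2 and when PBS and FP were fitted alone. FP against IL2, a comparison added after the data were seen, gave 2.00 ± 0.34 (adjusted p = 0.00918), the member peak called among 99 tested, beside 0.141% of all peaks. There 12 member peaks, or 4 of 37 regions, had an unadjusted p under 0.05 (5.05% of all), and FP was higher without overlap in 4 of 37 regions (5.65%) and lower in 1 (4.86%). That call was lost with the log2 library total as a covariate (adjusted p = 0.119) and without IL2 library c1 (0.0823), IL2 library c3 (0.0563) or FP library c2 (0.147), and its log2 value stayed between 1.74 and 2.31. All comparisons of a time share libraries and are not independent of each other.

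At 72 h the site gave 6.78, 4.18 and 3.88 CPM in PBS and 7.59, 5.27 and 5.24 CPM in FP, a log2 fold change of 0.26 ± 0.31 (adjusted p = 0.954). At 168 h it gave 6.85, 5.37 and 2.80 CPM in PBS and 3.51, 7.44, 1.59 and 2.54 CPM in FP, a log2 fold change of -0.42 ± 0.52 (adjusted p = 0.920), and -0.69 without PBS replicate 1 and FP replicate 2. Over 17 alternatives this value ran from -0.99 without FP replicate 2 to 0.17 with the log2 library total as a covariate, so its direction turned. The groups overlapped at both times. In one fit of all 31 libraries the IL2 effect at 16 h minus that at 0.75 h was -2.74 ± 0.57 (adjusted p = 0.0585), beside 0.0411% of all peaks called lower. The adjusted p was 0.0443 with library totals as scaling and 0.0150 with the library total as a covariate. The FP effect differed by -0.11 ± 0.55 between 16 and 0.75 h (adjusted p = 1.00, 0% of all peaks called), by -1.97 ± 0.55 between 168 and 0.75 h (adjusted p = 0.627, 0.000957% called lower) and by -1.86 ± 0.55 between 168 and 16 h (adjusted p = 0.515, 0.0201% called lower). Of the 642 windows of read length in the peak, 46 recurred exactly elsewhere on the chromosome. Their positions within the peak were not recorded, and near matches and other chromosomes were not counted.

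**Figure D3:**
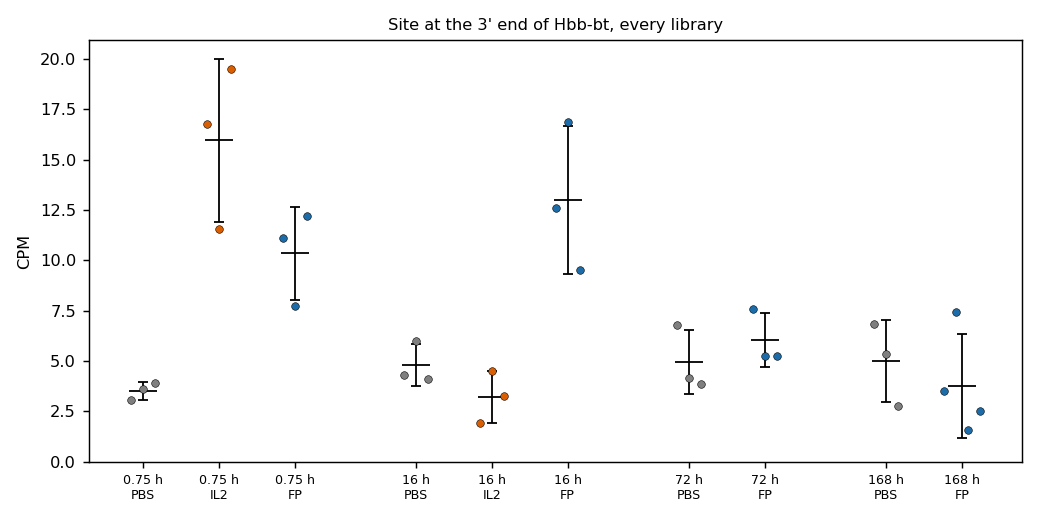
Accessibility of the Hbb-bt 3' end site (CPM) in every library by time and treatment, with the mean and SD of each group; grey is PBS, orange IL2 and blue FP. At 0.75 h the IL2 libraries (11.6 to 19.5 CPM) and the FP libraries (7.76 to 12.2 CPM) lie above PBS (3.05 to 3.93 CPM), at 16 h only FP does (9.52 to 16.9 CPM), and at 72 and 168 h the groups overlap.

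The other erythroid regions gave no called difference. The Hbb-bt intergenic region gave 5.48, 3.73 and 7.01 CPM in PBS at 0.75 h and 2.07, 4.58 and 2.46 CPM after IL2, a log2 value of -0.82 ± 0.39 (adjusted p = 0.872), opposite in sign to the 3' end. After FP it gave 6.39, 5.81 and 11.2 CPM, above all IL2 libraries and overlapping PBS (FP minus IL2 1.36 ± 0.39, adjusted p = 1.00). The region at the upstream Gata1 start gave 3.54, 2.62 and 1.99 CPM in PBS at 0.75 h, 4.49, 5.94 and 7.14 CPM after IL2 and 2.76, 4.11 and 3.93 CPM after FP. The IL2 libraries were above the PBS libraries without overlap, at a log2 value of 1.11 ± 0.36 (adjusted p = 0.382). At the same region FP gave 3.67, 9.43 and 4.66 CPM against 2.48, 2.17 and 3.75 CPM in PBS at 16 h (1.08 ± 0.40, adjusted p = 0.697) and 4.47, 7.34 and 8.56 CPM against 2.94, 2.31 and 4.71 CPM at 72 h (0.99 ± 0.33, adjusted p = 0.930). Both of these overlapped PBS by 1 library. The downstream Gata1 region, which carries the same 9 letters TTCTCAGAA, had log2 values between -0.82 and 0.48 over the 6 comparisons. For Klf1 they lay between -0.64 and 0.22 and for the wider Epor region between -0.52 and 0.64. Hba-a1 did not pass the filter: it held 6 counts over the 3 PBS libraries of 0.75 h and 4 over those of 16 h, and 0 after IL2 at 0.75 h and after FP at 16 h.

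**Figure D4:**
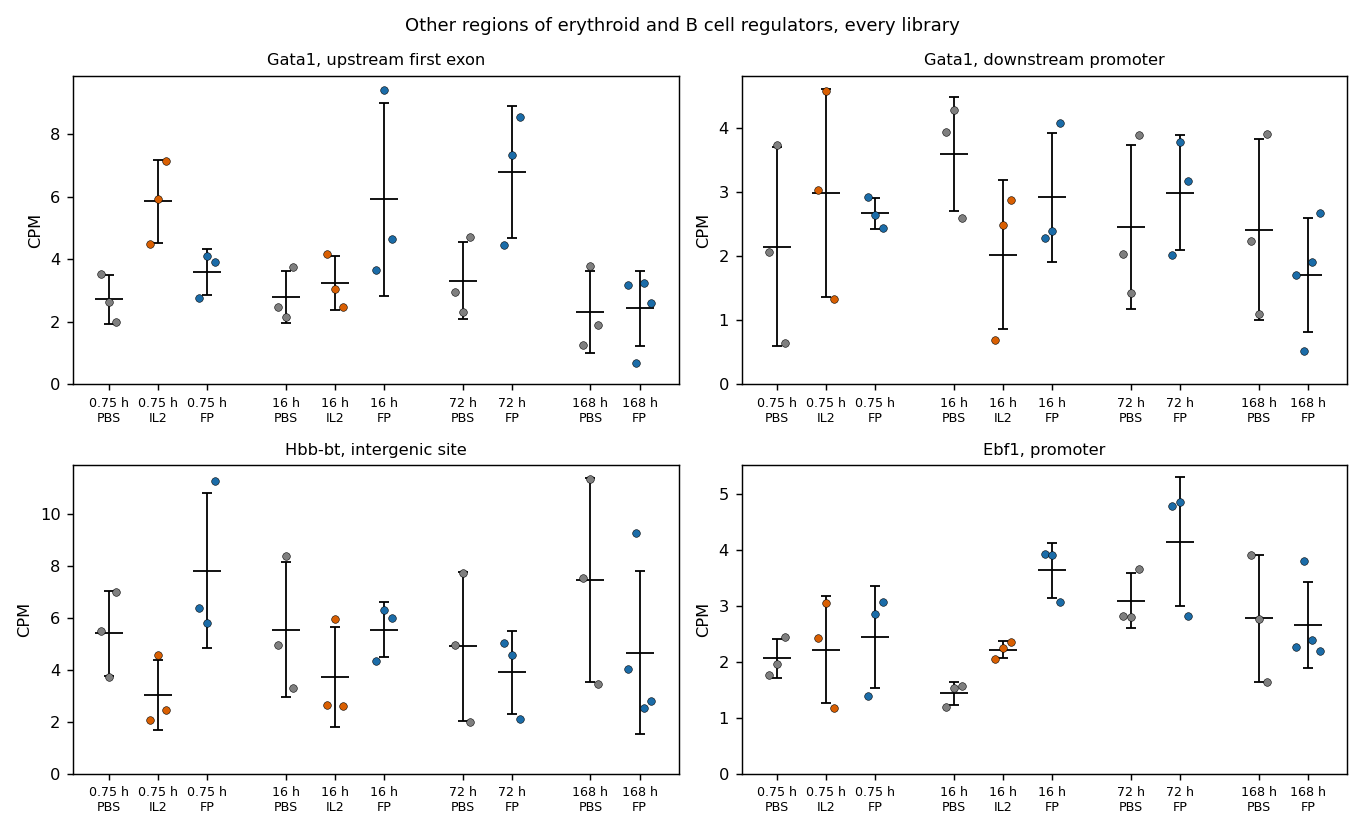
Accessibility (CPM) in every library of the upstream and downstream Gata1 regions, the Hbb-bt intergenic region and the Ebf1 promoter, with group means and SD; grey is PBS, orange IL2 and blue FP. At the upstream Gata1 region the IL2 libraries of 0.75 h (4.49 to 7.14 CPM) lie above PBS, at the Ebf1 promoter the FP libraries of 16 h (3.07 to 3.93 CPM) lie above PBS (1.20 to 1.57 CPM), and the downstream Gata1 and Hbb-bt intergenic regions overlap PBS at every time.

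Summed over its 8 regions, erythroid accessibility was 23.7, 27.6 and 23.8 CPM in the PBS libraries of 0.75 h and 36.6 to 42.9 CPM after IL2 and 31.1 to 36.6 CPM after FP. Without the Hbb-bt 3' end the same sums were 19.9 to 24.0 CPM in PBS and 19.9 to 26.8 CPM after IL2, and after FP 23.3 to 24.4 CPM. At 16 h the sum over 8 regions was 27.5 to 31.3 CPM in PBS and 34.1 to 43.1 CPM after FP, and without the site 23.2 to 25.3 and 21.5 to 27.2 CPM. At 168 h the sum was lower after FP, 20.8 to 24.5 CPM against 24.9 to 30.3 CPM in PBS, and without the site 17.0 to 20.6 against 18 to 24.9 CPM. The groups that were apart with the site overlapped without it. A further list of 20 erythroid genes, among them the transcription factor genes Tal1 and Nfe2, had peaks at 11 genes. Of its 29 tested regions 0 passed after IL2 at 0.75 h, 15 had a log2 value above 0 and the median was 0.00. For FP at 16 h 0 of 29 passed, with a median of -0.05. For FP at 168 h 0 of 28 passed, with a median of 0.05. Summed over this further list, accessibility at 168 h was higher after FP, opposite to the 8 regions. It was 101 to 122 CPM against 88.2 to 98.6 CPM in PBS, without overlap. Hbb-bs, Hba-a2, Alas2 and, in the further list, Slc4a1, Ahsp and Epb42 had no peak. Of 6 regions of a megakaryocyte list 0 passed in any comparison.

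**Figure D5:**
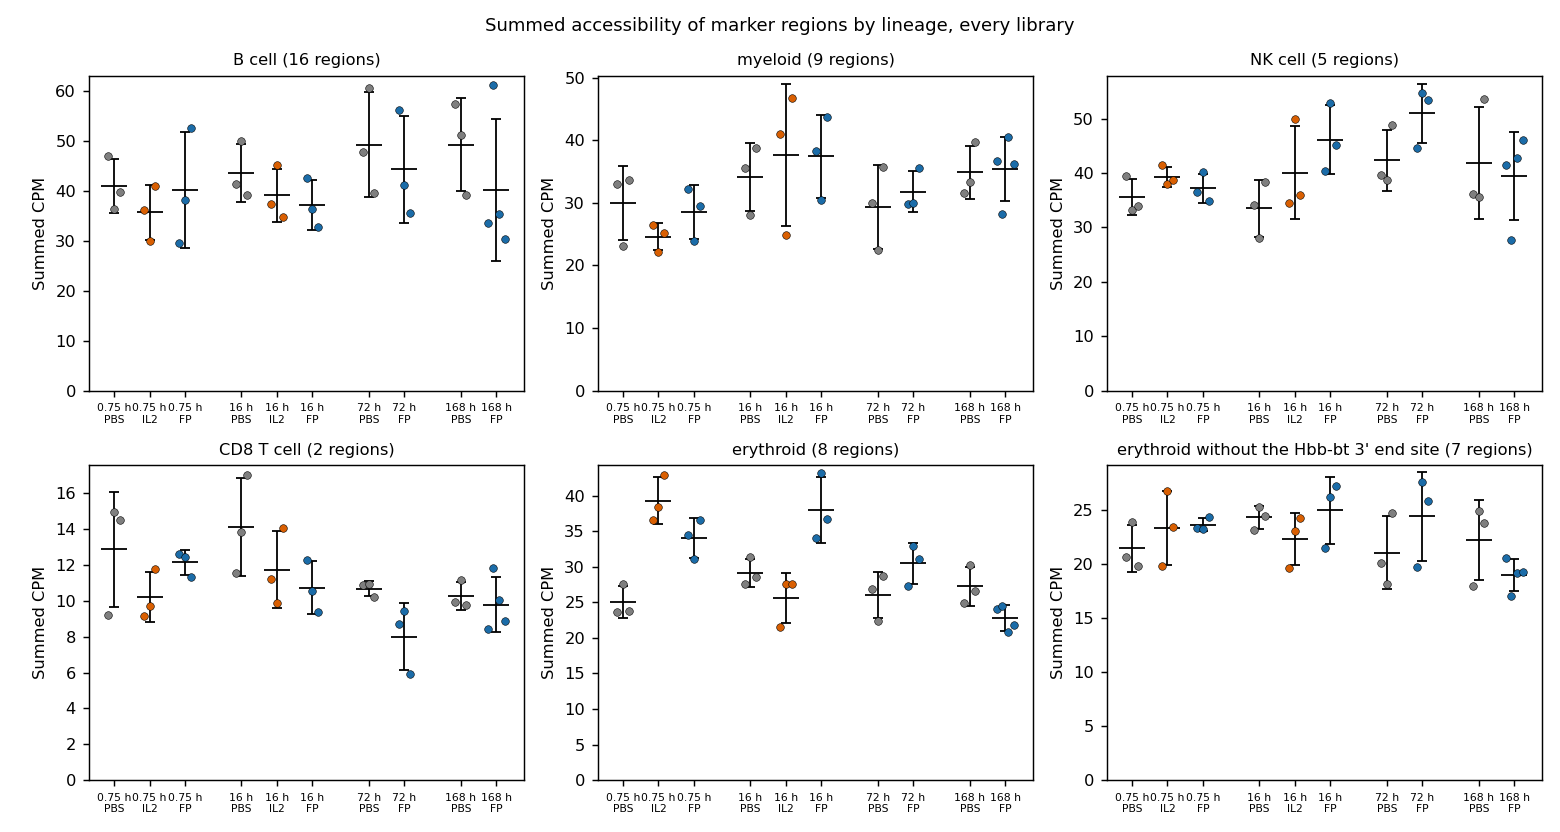
Summed CPM of the marker regions of each lineage in every library, with group means and SD, and in the last panel the erythroid sum without the Hbb-bt 3' end; grey is PBS, orange IL2 and blue FP. The erythroid sums after IL2 at 0.75 h (36.6 to 42.9 CPM) and FP at 16 h (34.1 to 43.1 CPM) lie above PBS and overlap it in the last panel. The other erythroid sums apart from PBS are those after FP at 0.75 h (31.1 to 36.6 CPM, higher) and 168 h (20.8 to 24.5 CPM, lower). Also apart are the NK sums after FP at 16 h (40.4 to 52.9 CPM, higher) and the CD8 sums after FP at 72 h (5.89 to 9.41 CPM, lower). The open intergenic Klrb1c site holds a large part of the NK sums.

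B cell markers showed no called difference at 0.75, 16, 72 or 168 h. The median log2 difference over their tested regions was -0.13 for IL2 and 0.04 for FP at 0.75 h, -0.21 for both IL2 and FP at 16 h, -0.27 for FP at 72 h and -0.05 for FP at 168 h. The Ebf1 promoter was the region with separate groups for IL2 at 16 h: 2.05, 2.24 and 2.36 CPM against 1.20, 1.54 and 1.57 CPM in PBS, a log2 value of 0.63 ± 0.42 (adjusted p = 1.00). Of the single peaks, 2 narrow ones at the Hbb-bt intergenic region were lower without overlap in that comparison (log2 -1.86 ± 0.77 and -1.83 ± 0.77, adjusted p = 1.00 for both), below a mean log2 CPM of 0. At the Ebf1 promoter FP at 16 h gave 3.93, 3.91 and 3.07 CPM, 1.34 ± 0.42 above PBS on the log2 scale (adjusted p = 0.458). The Ebf1 intron site, the most open B cell region, went the other way at that time, with 11.1, 7.01 and 7.52 CPM after FP against 12.5, 14.8 and 13.4 CPM in PBS (-0.67 ± 0.27, adjusted p = 0.801). At 168 h a Pax5 intron region (chr4:44624257-44625310) gave 2.68, 5.71, 5.14 and 4.06 CPM after FP and 6.71, 8.06 and 8.31 CPM in PBS. All 4 FP libraries were below the 3 PBS libraries, and the log2 value of -0.83 ± 0.31 did not pass (adjusted p = 0.899). Summed over 16 regions, B cell accessibility at 168 h was 33.6, 61.2, 35.4 and 30.4 CPM after FP and 57.4, 51.2 and 39.2 CPM in PBS. Without FP replicate 2 and PBS replicate 1, the pair that stood apart (PBS replicate 2, which was kept, had 13.4 M counts), the FP sums of 30.4 to 35.4 CPM lay below both remaining PBS sums, and 0 member peaks passed the test. The highest sums of 168 h, 61.2, 57.4 and 51.2 CPM, were those of the libraries with the fewest counts. PBS replicate 4, with 33.7 M counts, had 39.2 CPM, and the FP libraries kept had 32.8 to 37.7 M. Treatment and depth were thus not separated here, and a link of the sum to depth was not tested.

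Myeloid markers gave no called difference either, and their median log2 values lay between -0.32 for IL2 at 0.75 h and 0.21 for IL2 at 16 h. The Cebpa promoter region was higher without overlap for FP at 16 h (12.0 ± 1.08 against 7.95 ± 2.34 CPM, SD, n = 3; log2 0.59 ± 0.32, adjusted p = 0.962). The Cd14 promoter was lower without overlap for FP at 72 h (3.72 ± 0.35 against 4.74 ± 0.47 CPM; log2 -0.38 ± 0.25, adjusted p = 0.930). Summed myeloid accessibility ranged from 22.2 to 46.8 CPM over the 31 libraries, and treated and PBS libraries overlapped at each time. In a further list of 18 myeloid genes 0 of 42 or 43 tested regions passed in any comparison. Its median log2 value was 0.31 for FP at 72 h and 0.38 for FP at 168 h, beside -0.03 and -0.01 over all peaks, and 37 and 36 of 43 regions were above 0, against 46.9% and 49.3% of all peaks. Cx3cr1 alone accounts for 23 of the 44 regions of the list that enter here. Thus 1 gene has a large weight in these counts, which were not split by gene. That list holds genes that Tregs can express, such as Cx3cr1 and Ccr2.

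Of the NK cell regions, the 3' end of Klrb1c (chr6:128783116-128783875) had the largest negative value with separate groups at 72 h, 0.80, 1.32 and 1.25 CPM after FP against 3.59, 2.23 and 3.07 CPM in PBS (log2 -1.43 ± 0.34, adjusted p = 0.930). The open intergenic Klrb1c site was higher for FP at 16 h, at 26.8, 36.4 and 34.1 CPM against 23.8, 16.6 and 26.4 CPM (0.54 ± 0.23, adjusted p = 0.862), and for IL2 at 0.75 h, at 29.3, 28.7 and 25.0 CPM against 24.4, 21.8 and 23.1 CPM (0.27 ± 0.20, adjusted p = 1.00). Neither pair of groups overlapped, and neither difference passed. Summed over 5 regions, NK accessibility was 40.4 to 52.9 CPM after FP at 16 h and 28.0 to 38.4 CPM in PBS. The open intergenic Klrb1c site, with the values above, is among them and holds a large part of these sums. A sum without that site is not given. The Klra8 intron region held 0 counts in all 3 FP libraries of 16 h and 40 counts in the PBS libraries of that time. A floor of 3 counts over the FP group puts it at least 16.9-fold lower, but the PBS values were 0.414, 1.82 and 0.203 CPM and the test did not pass (adjusted p = 0.238). The same region was at 4.33, 5.01 and 0.00 CPM in PBS at 168 h, so PBS libraries of 1 time differed there as well. In a further list of 12 NK genes 0 of 23 or 24 regions passed in any comparison. Summed over that list, accessibility at 16 h went the other way, at 44.1 to 53.4 CPM after FP and 59.3 to 61.6 CPM in PBS. There 17 of 23 tested regions had a log2 value below 0 for FP at 16 h, and the median was -0.41.

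At Cd8a the region in the last exons gave 2.22, 1.72 and 1.35 CPM after FP at 16 h against 2.57, 5.31 and 3.45 CPM in PBS, the largest negative value with separate groups at that time among members of sufficient level (log2 -1.10 ± 0.44, adjusted p = 0.781). At 72 h it gave 1.71, 1.46 and 1.54 CPM against 2.58, 2.85 and 2.80 CPM (-0.83 ± 0.30, adjusted p = 0.930), and at 168 h 1.18, 1.64, 1.29 and 0.095 CPM against 3.35, 1.31 and 1.75 CPM (-1.04 ± 0.75, adjusted p = 0.899), with overlap. The Cd8b1 promoter, with log2 values from -0.49 to 0.08 over the 6 comparisons, overlapped PBS in each. Summed CD8 accessibility at 72 h was 8.69, 9.41 and 5.89 CPM after FP and 10.2 to 10.9 CPM in PBS.

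Read against the printed letters, the 7 regions with TTCNNNGAA had a median log2 value of 0.32 for IL2 and 0.32 for FP at 0.75 h, -0.56 and -0.21 at 16 h, 0.05 for FP at 72 h and -0.42 at 168 h. The tested regions without it were at -0.12, -0.01, 0.03, -0.11, -0.12 and -0.18. The 7 include the Hbb-bt 3' end, shown because it passed, which holds their highest values at 0.75 h, 2.18 for IL2 and 1.56 for FP. No such medians are given for all peaks with these letters, so a link of the motif to the change was not tested. Among peaks of 537 to 895 bp, close to the width of the Hbb-bt site, 21.7% hold TTCNNNGAA and 9.04% GAGGAAGT, so neither match is rare at this width. The Cd8a region, with a pair of matches, had negative values for FP at 16, 72 and 168 h and positive ones at 0.75 h (0.53 ± 0.41 for FP and 0.32 ± 0.41 for IL2, adjusted p = 1.00 for both), and the Cebpa, Cd8b1 and Spi1 matches lay in regions that did not pass in any comparison. Among the other motifs searched on both strands, AGATAAG was in 2 of 40 regions (5.05% of all peaks of the same width range), both erythroid. The EBF motif was in 0 (1.05%), the RUNX motif TGTGGTT in 4 (12.3%), the CTCF core in 7 (19.2%), GAGGAAGT in 6 (5.67%) and the KLF motif CCNCNCCC in 23 (39.6%). A match is a stretch of letters and not a measured binding event.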

How the data were processed

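The authors deposited a table of whole-number counts of reads per peak for 31 libraries, with no normalization; reads were aligned with BWA to GRCm38 (mm10) and peaks called with MACS2 2.1.2, per the submitters' processing notes, and the read counter is not given in the sources used here. In one deposited column, which also holds counts, commas inside 9561 peak names shift the fields, so lines were read from the right. Peak width in bp is the authors' own column.

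Counts were scaled with TMM factors (edgeR 4.0.16, R 4.3.3) and given as CPM, per kb of width between genes. Each time was fitted with all its groups by edgeR's quasi-likelihood F test on peaks passing filterByExpr (minimum count 10, minimum total 15), with Benjamini-Hochberg adjustment over all tested peaks and a threshold of 0.05; the SE is the log2 value divided by the root of F. DESeq2 1.42.0 was an alternative. The steps were tested on simulated data. Totals of 7.39 to 59.6 M set the counting error. Groups came from the labels; at 16 h the column names give the group and a number from 1 to 3 that does not match the numbers in the sample titles, so each column was tied to a group and not to a sample, under the names c1 to c3.

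Peaks were matched by the gene names in the table, overlapping peaks merged, and annotation taken from GENCODE M21. Peaks were named by a rule: each past the threshold, the largest rise and fall with separate groups in each comparison among peaks with a mean log2 CPM of at least 0, and the highest promoter-labelled peaks of each lineage. Other regions were named after their values were seen. The members and lists were chosen with earlier results of these data known. Same-numbered IL2 and PBS libraries of 0.75 h deviated together (r 0.14 to 0.39), which makes them pairs by the rule that every r exceeds 0.1; the block changed no call there.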

Additional observations from a re-analysis of the deposited data

Results flagged for a closer look

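At 168 h, in the group of 4 FP libraries, FP replicate 2, of low depth, stood apart from the others in 6 of the values tested for a single distant library. The Ebf1 promoter was at 3.80 CPM there and at 2.19 to 2.39 CPM in the others. An Ebf1 intron region was at 0.259 CPM against 0.0885 to 0.103 CPM, and the Ebf1 3' end at 6.49 CPM against 0.570 to 1.52 CPM. The Ebf1 intron region held few counts, such as 10 over the PBS and 0 over the IL2 libraries of 16 h. Its values are thus near the floor of counting in a library of low depth. The Klra8 intron region was at 4.24 CPM against 0 to 0.285 CPM. The Klf1 exon region was lower there, at 5.19 CPM against 8.59 to 9.17 CPM. The sum over B cell regions was 61.2 CPM against 30.4 to 35.4 CPM. In all 45 values were tested this way, and chance flags about 1 in 20.

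The Hbb-bt 3' end differed between the treatments at 16 h, with FP 2.00 above IL2 on the log2 scale (edgeR quasi-likelihood test, adjusted p = 0.00918).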

How the results depend on the processing

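Counted as pairs of a result and an alternative, counts of calls and median PBS levels stayed in 208 pairs and moved in 20, all given below; for single named peaks the call, or its absence, stayed in 581 pairs, was gained in 6 and lost in 4. No called value reversed, while the uncalled Hbb-bt value for FP at 168 h changed sign to 0.17 with the library total as a covariate. The count of member peaks called was 1 in place of 0 for FP at 0.75 h under DESeq2 and under the replicate block, whose numbers do not pair those libraries, and for FP at 16 h under DESeq2 and with the 2 groups alone. For FP against IL2 at 16 h it was 0 in place of 1 with the library total as a covariate, and 0 to 1 when a library was left out. The replicate block was not run at 16 h, because the column numbers there do not match those of the sample titles, which differ between the groups. The block changed no other call. The shares of all peaks called under these alternatives are not given, so the member counts cannot be set against them.

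Median PBS levels over single member peaks, in CPM per kb, were 5.36 (B cell), 5.73 (myeloid), 15.1 (NK), 10.7 (CD8) and 7.47 (erythroid). They moved to 7.41 (B cell), 7.87 (myeloid), 20.6 (NK), 14.6 (CD8) and 10.2 (erythroid) when totals left out the largest peak. With promoter-labelled peaks alone they were 3.66 (B cell), 8.29 (myeloid), 3.65 (NK) and 5.04 (erythroid), and with a single peak per region 4.15 (NK), 6.38 (CD8) and 4.80 (erythroid). Leaving out a PBS library gave 5.07 to 5.58, 5.38 to 6.15, 14.7 to 15.8, 10.2 to 11.0 and 7.08 to 7.72 in the order B cell, myeloid, NK, CD8, erythroid. Leaving out the largest peak, which took 15% to 32.2% of each total, makes the totals smaller and so raises CPM in every lineage. The moves with promoter-labelled peaks or a single peak per region are medians over other sets of peaks. The cause of the changes in calls was not tested. The comparison of FP with IL2, the differences between times and the single peak per region were chosen after seeing the data. Variation between libraries beyond counting error, of 38.6% to 48.0%, and counts of under 100 at many members limit what could be detected.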
